A study of Mus musculus with 4 samples.

Results

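The genes that drive and carry out cell division were followed in BCR-ABL leukemia stem cells with and without Hif1a. They are 36 named genes of mitotic cyclins and kinases, kinesins and spindle proteins, kinetochore and centromere proteins, genes of the anaphase-promoting complex (APC/C) and chromosome separation, and chromosome proteins. A gene counted as measured where a probe set of the array named it and no other gene, and the probe set with the highest mean stood for it. This held for 35 of the 36, out of 19938 genes measured in all, and the cyclin gene Ccnb1 was not analysed here. The values are log2 expression, so that a difference of 1 is a 2-fold change.

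Chronic myeloid leukemia (CML) was modelled by marrow transplantation. Donor mice had received 5-fluorouracil, their marrow took up a BCR-ABL/GFP retrovirus, which delivers the kinase fusion behind CML and a green fluorescent marker, and C57BL/6 (B6) mice were the recipients in both groups. Donors were C57BL/6 mice for the WT group and Hif1a-/- mice for the other, and the age given is 8 weeks. The GFP+Lin-c-Kit+Sca-1+ fraction of the marrow was taken by flow cytometry at day 14, and both groups carry BCR-ABL, so no sample shows the genes without it. There were 2 arrays of WT and 2 of Hif1a-/- cells. The labels name neither the deleted part of Hif1a nor whether a sample was 1 mouse or a pool, so p-values measure the spread between these samples only.

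Entry into mitosis is driven by the kinase CDK1 with cyclin A or cyclin B. Aurora and Polo kinases then build the spindle, kinesin motors move microtubules and chromosomes, and kinetochores tie each chromosome to the spindle. Checkpoint kinases hold back the APC/C, a ubiquitin ligase, until every chromosome is attached; its partner CDC20 then marks cyclin B and securin for destruction and frees separase to part the chromosomes. The genes are switched on late in the cycle through promoters that often hold a CHR element, where the DREAM and MuvB complexes bind, and CCAAT boxes, where the factor NF-Y binds.

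That promoter layout was frequent among the members. RefSeq windows of assembly GRCm38.p6, from 250 bases before to 50 bases after an annotated start, were at hand for 30 of the 35 genes, in 31 windows. A CHR element, searched as TTTGAA or TTCGAA on both strands, was found in 26 of 31 windows (83.9%), against 19.2% of all 32851 windows in the table. The CCAAT box, searched as CCAAT on both strands, was found in 24 (77.4%), against 37.4% of all windows, and both together in 23 (74.2%), against 7.52%. Of 34 CHR matches, 24 began within 50 bases of the start, a share that was not counted over all windows. Prc1 has 2 overlapping windows, so its CHR element counts as 2 of these matches (first base -5 and -30). The annotated start matched the outer end of the RefSeq gene in 17 of 31 windows. The core of the HIF binding site, ACGTG or GCGTG on both strands, was found in 21 windows (67.7%), against 43.8% of all. A match is a run of letters and not a shown binding site, and the windows were not matched for base composition.

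The 100 bases before the start are printed below, 5′ to 3′ on the strand of the gene, for 6 genes in which both elements lie within that stretch (a kinase, a kinesin, a chromosome protein and 3 APC and separation genes) and for 2 genes with neither element in the window. Capitals mark CHR matches (TTTGAA, or TTCAAA where the element lies on the other strand) and CCAAT boxes (CCAAT, or ATTGG on the other strand).
Cdk1: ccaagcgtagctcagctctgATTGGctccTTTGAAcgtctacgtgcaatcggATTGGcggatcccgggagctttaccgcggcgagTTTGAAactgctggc
Kif11: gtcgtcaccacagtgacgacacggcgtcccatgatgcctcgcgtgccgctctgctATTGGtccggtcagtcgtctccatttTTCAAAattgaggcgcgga
Cdc20: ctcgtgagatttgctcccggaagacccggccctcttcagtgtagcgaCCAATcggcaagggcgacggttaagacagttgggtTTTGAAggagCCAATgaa
Ube2c: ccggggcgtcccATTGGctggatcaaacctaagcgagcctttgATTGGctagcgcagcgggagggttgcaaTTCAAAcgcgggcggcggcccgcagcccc
Espl1: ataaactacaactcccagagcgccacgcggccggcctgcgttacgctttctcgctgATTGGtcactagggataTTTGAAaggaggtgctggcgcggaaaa
Top2a: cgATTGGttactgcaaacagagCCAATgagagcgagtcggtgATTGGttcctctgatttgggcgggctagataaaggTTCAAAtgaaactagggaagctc
Nusap1: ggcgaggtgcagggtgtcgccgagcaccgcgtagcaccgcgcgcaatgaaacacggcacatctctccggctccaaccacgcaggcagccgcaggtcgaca
Nuf2: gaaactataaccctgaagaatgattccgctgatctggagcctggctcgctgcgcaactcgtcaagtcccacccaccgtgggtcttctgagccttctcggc

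The stretches are Cdk1 at chr10:69352913-69353012 (minus strand), Kif11 at chr19:37376282-37376381 (plus strand), Cdc20 at chr4:118437344-118437443 (minus strand), Ube2c at chr2:164769829-164769928 (plus strand), Espl1 at chr15:102296193-102296292 (plus strand), Top2a at chr11:99024190-99024289 (minus strand), Nusap1 at chr2:119618198-119618297 (plus strand), Nuf2 at chr1:169531465-169531564 (minus strand). Cdk1 holds 2 CHR matches and 2 CCAAT boxes in this stretch, and Top2a 1 and 3. Nusap1 and Nuf2 hold 0 of either, here and in the rest of their windows, as do Mad2l1 and Birc5.

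**Figure D1:**
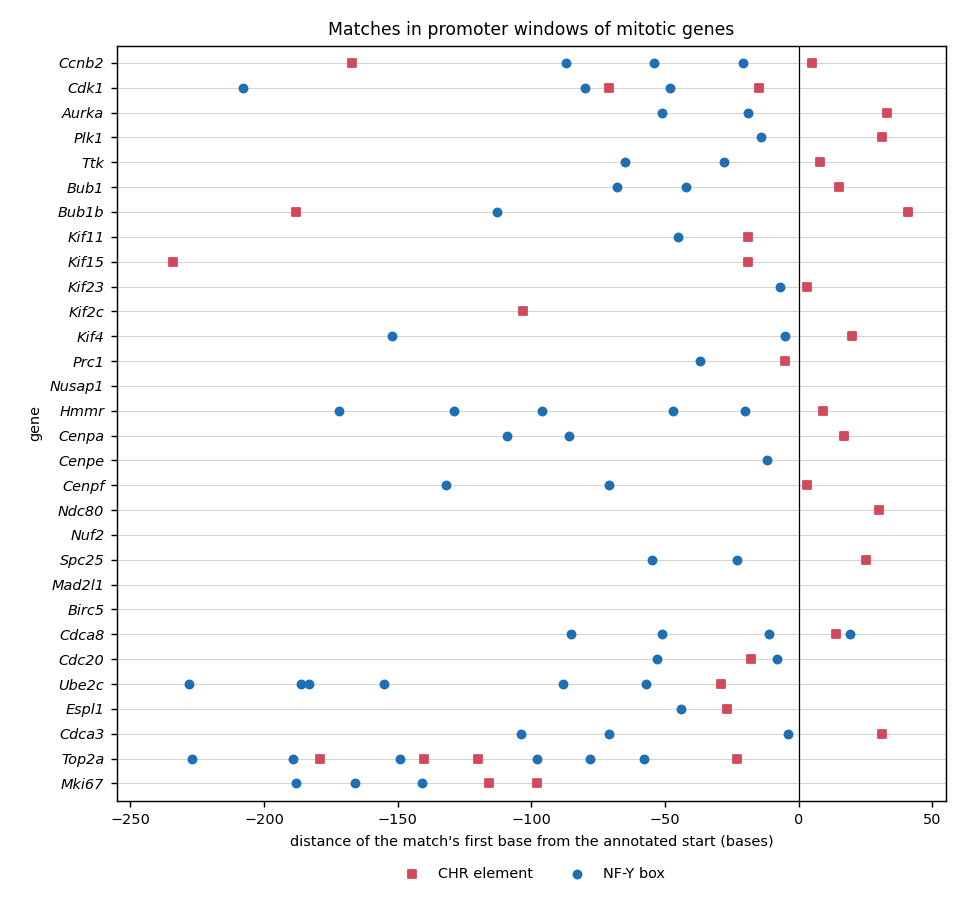
Positions of CHR elements (red squares) and of CCAAT boxes, the sites of NF-Y (blue circles), in the promoter windows of 30 mitotic genes. The horizontal axis is the distance in bases of a match's first base from the annotated start, and the rows of Nusap1, Nuf2, Mad2l1 and Birc5 hold no match.

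Medians over all genes lay between 8.53 and 8.57 on the 4 arrays. Hif1a itself read 11.34 and 11.50 on WT replicates 1 and 2 and 11.25 and 11.39 on Hif1a-/- replicates 1 and 2, which shows no loss of signal; a probe set can keep its signal when part of a gene is deleted. Kit and the leukocyte gene Ptprc read from 10.32 to 11.60 on all arrays. The lineage markers Itgam and Cd3e read from 10.27 to 11.88 and from 8.27 to 8.63. The neutrophil genes S100a8 and Ltf, named after their values were seen, read 11.47 or more on every array, although lineage-positive cells were sorted away. By limma, 0 of 19938 genes (0%) passed an adjusted p of 0.05, and 334 (1.68%) had an unadjusted p under 0.05.

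No mitotic gene passed the test between genotypes, and the differences were small. Of 35 genes, 0 had an adjusted or an unadjusted limma p under 0.05, beside 1.68% of all genes at the unadjusted level, 0.697% higher and 0.978% lower in Hif1a-/- cells. The smallest unadjusted p was 0.309, for Birc5. Differences, Hif1a-/- minus WT, ran from -0.11 for Nusap1 to 0.17 for Aurkb, the latter a 1.13-fold difference, with a median of 0.06 beside 0.03 over all genes. The mean was higher in Hif1a-/- cells for 24 genes and lower for 11 (68.6% higher, against 61.4% of all genes), and with array medians set equal the split was 20 to 15 (57.1%, against 52.9% of all genes). A second quantile normalization gave 25 to 10 (71.4%, against 52.8%), so the members' share above that of all genes depended on the scaling.

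The limma 95% intervals bound what these arrays could miss. For all 35 genes the interval lay within a 2-fold change either way, as it did for 97.8% of all genes, and for 34 within 1.5-fold. The widest bounds were -0.51 for Hmmr and 0.65 for Aurkb, and standard errors ran from 0.12 to 0.20. These bounds rest on 2 arrays a group, on variance pooled over genes and on RMA values, which draw small differences of dim genes together. In such bulk RNA, fewer dividing cells and less mRNA in each dividing cell cannot be told apart.

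**Figure D2:**
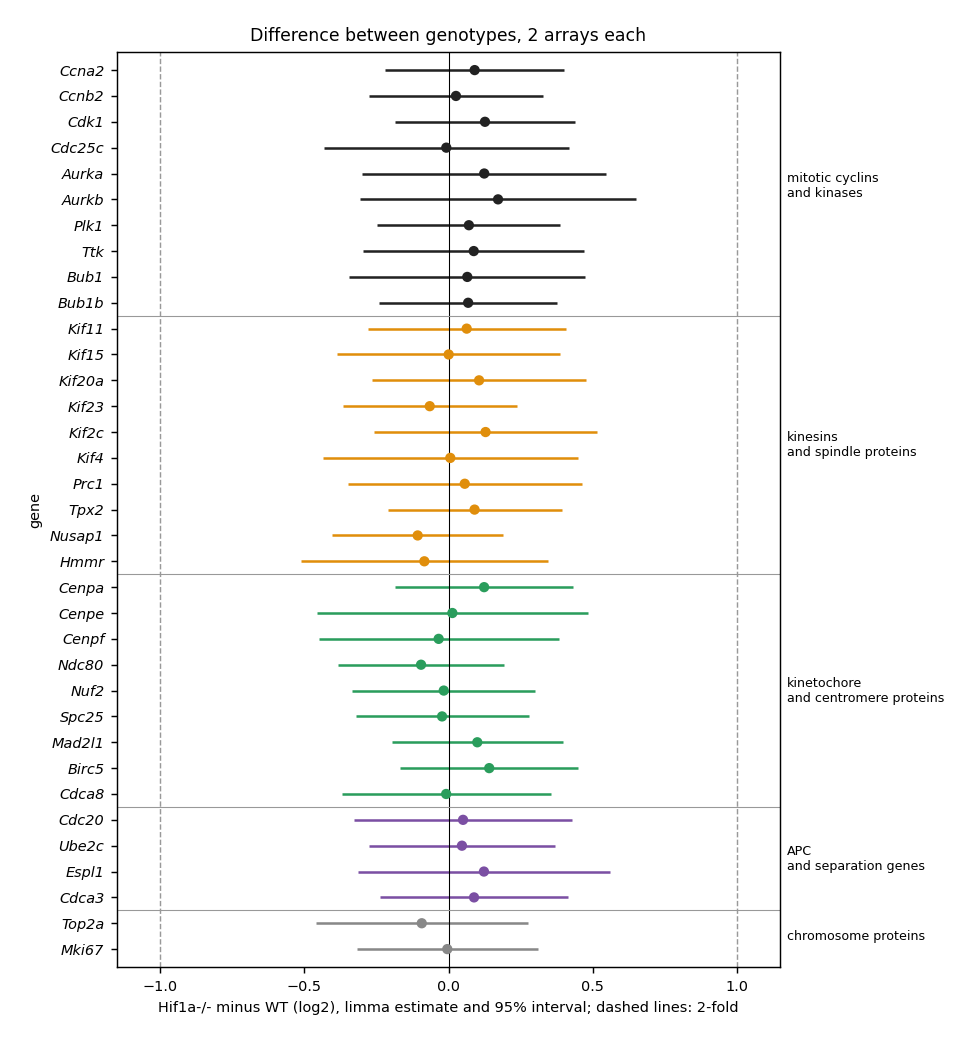
Difference between genotypes for each of 35 mitotic genes, as the limma estimate of Hif1a-/- minus WT on the log2 scale (points) with its 95% interval (lines), 2 arrays a group. All intervals cross 0 and end inside the dashed lines at a 2-fold change.

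In 3 genes the Hif1a-/- pair read wholly above the WT pair and in 2 wholly below it, beside 15.7% and 9.05% of all genes, and thus 5 genes had no overlap, beside 24.8%. The 3 were Cdk1, Mad2l1 and Birc5, and the 2 were Nusap1 and Ndc80. With a second quantile normalization the counts were 7 above and 1 below. The shares of all genes under that scaling are not given here, so these 2 counts have no baseline. The groups overlapped in the other 30 genes.

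The CDK1 kinase and its cyclins had slightly higher means in Hif1a-/- cells, each within its error. In what follows, values are given in the order of replicate 1 and replicate 2 of each genotype. Cdk1, the kinase of mitotic entry, read 12.10 and 12.29 in WT and 12.33 and 12.32 in Hif1a-/- cells, a difference of 0.13 ± 0.13 (SE) with an unadjusted limma p of 0.365. Its partner Ccna2, cyclin A2, read 12.42 and 12.59 in WT and 12.59 and 12.60 in Hif1a-/- cells (difference 0.09). The other mitotic cyclin measured, Ccnb2, read 12.72 and 12.75 in WT and 12.83 and 12.69 in Hif1a-/- cells (difference 0.03). For Cdk1 and Ccna2 WT replicate 1 lay apart from the other 3 arrays, which lay within about 0.04 of each other. Cdc25c, the phosphatase that removes the inhibitory phosphates from CDK1, read 9.005 and 9.47 in WT and 9.23 and 9.24 in Hif1a-/- cells, so that both Hif1a-/- arrays lay between the WT arrays.

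Among the spindle and checkpoint kinases, WT replicate 1 was again the lowest array for each gene. Aurkb, the kinase of the chromosomal passenger complex that corrects wrong attachments, had the largest difference of all members and the largest standard error, 0.17 ± 0.20 (SE), with an unadjusted limma p of 0.417. It read 11.93 and 12.48 in WT and 12.29 and 12.46 in Hif1a-/- cells. Aurka, the aurora kinase of centrosomes and spindle poles, read 10.65 and 11.07 in WT and 10.90 and 11.07 in Hif1a-/- cells. For both aurora kinases the second array of each genotype was the higher one, and those 2 arrays lay within 0.02 of each other. Plk1, the Polo kinase of centrosome maturation and mitotic entry, read 11.95 and 12.16 in WT and 12.12 and 12.13 in Hif1a-/- cells. The checkpoint kinase Ttk, also called MPS1, read 9.45 and 9.81 in WT and 9.78 and 9.66 in Hif1a-/- cells. Both Hif1a-/- values of these genes fell within the range of the WT pair. Bub1, a checkpoint kinase of the kinetochore, read 10.85 and 11.27 in WT and 11.07 and 11.18 in Hif1a-/- cells. Bub1b, the checkpoint protein BUBR1 that binds CDC20, read 10.68 and 10.85 in WT and 10.83 on each Hif1a-/- array. Over the 10 cyclins and kinases measured, with Cdc25c among them, 9 had a higher mean in Hif1a-/- cells, beside 61.4% of all genes. The median difference of 0.08 was -0.06 without WT replicate 1 and 0.22 without WT replicate 2.

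Kinesins and spindle proteins had the highest median gap between the WT arrays among the 5 roles of members. Kif11, the Eg5 motor that pushes spindle poles apart, read 11.40 and 11.67 in WT and 11.55 and 11.65 in Hif1a-/- cells. Kif15, a motor that helps to keep the spindle bipolar, read 10.32 and 10.71 in WT and 10.55 and 10.48 in Hif1a-/- cells. Kif2c, which takes microtubule ends apart at kinetochores, read 10.08 and 10.47 in WT and 10.42 and 10.38 in Hif1a-/- cells. In these 3 motors both Hif1a-/- arrays lay inside the WT range. Kif4, a chromosome-bound kinesin, read 9.33 and 9.79 in WT and 9.68 and 9.46 in Hif1a-/- cells. Kif20a, a kinesin of cytokinesis, read 10.84 and 11.19 in WT and 11.10 and 11.14 in Hif1a-/- cells. Its partner in the last step of division, Kif23 of the centralspindlin complex, read 10.99 and 11.11 in WT and 11.01 and 10.96 in Hif1a-/- cells. Kif20a and Kif23 differed by 0.11 and -0.07 between genotypes, each by less than its standard error.

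The microtubule-binding proteins went both ways. Prc1, which bundles the microtubules of the central spindle, read 9.99 and 10.40 in WT and 10.18 and 10.32 in Hif1a-/- cells. Tpx2, the activator of Aurora A, read 10.62 and 10.75 in WT and 10.75 and 10.81 in Hif1a-/- cells. Hmmr, a spindle and hyaluronan-binding protein, read 9.79 and 10.22 in WT and 9.82 and 10.03 in Hif1a-/- cells. Of these 3 genes the Hif1a-/- mean was lower for Hmmr alone, and its difference was 0.13 with WT replicate 2 left out and 0.019 with Hif1a-/- replicate 1 left out. Nusap1, a protein of spindle microtubules near chromosomes, read 11.29 and 11.30 in WT and 11.13 and 11.25 in Hif1a-/- cells, a difference of -0.11 ± 0.12 (SE) with an unadjusted limma p of 0.417. Here the WT arrays lay 0.015 apart, and Hif1a-/- replicate 1 was the lowest array. Over all 10 kinesins and spindle proteins 7 means were higher, beside 61.4% of all genes, and 3 lower. The median difference was 0.03, and it was -0.12 without WT replicate 1 and 0.19 without WT replicate 2.

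Kinetochore and centromere genes lay on both sides. Cenpa, the histone variant that marks the centromere, read 11.26 and 11.38 in WT and 11.51 and 11.38 in Hif1a-/- cells, a difference of 0.12. Cenpe, the kinesin of the kinetochore, read 9.71 and 10.26 in WT and 10.04 and 9.96 in Hif1a-/- cells, and Cenpf, a large kinetochore protein of late G2 and mitosis, read 9.31 and 9.74 in WT and 9.55 and 9.43 in Hif1a-/- cells. Cenpe had the largest gap between WT arrays of all members, 0.55, a 1.46-fold difference, and differed by 0.01 between genotypes. Of the NDC80 complex, which grips microtubule ends, Ndc80 read 9.59 and 9.57 in WT and 9.46 and 9.52 in Hif1a-/- cells, a difference of -0.10. Its partner Nuf2 read 10.12 and 10.32 in WT and 10.21 and 10.20 in Hif1a-/- cells. A further subunit, Spc25, read 9.69 and 9.73 in WT and 9.62 and 9.75 in Hif1a-/- cells. The means of these 3 subunits were lower in Hif1a-/- cells by 0.10 or less, with unadjusted limma p of 0.457, 0.905 and 0.864, and that of Spc25 turned without Hif1a-/- replicate 1 and that of Nuf2 without WT replicate 2.

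Mad2l1, the MAD2 checkpoint protein that holds CDC20, read 11.68 and 11.79 in WT and 11.83 and 11.84 in Hif1a-/- cells, a difference of 0.10 ± 0.12 (SE). Birc5, survivin, a passenger complex protein also known as an inhibitor of apoptosis, read 10.17 and 10.28 in WT and 10.31 and 10.43 in Hif1a-/- cells, a difference of 0.14 ± 0.13 (SE). It ranged from 0.081 to 0.20 with 1 array left out at a time. Cdca8, borealin, of the same complex, read 10.49 and 10.82 in WT and 10.63 and 10.66 in Hif1a-/- cells and differed by -0.01. The passenger complex genes thus differed by 0.17 for Aurkb, 0.14 for Birc5 and -0.01 for Cdca8. Over the 9 kinetochore and centromere genes the mean was higher for 4 and lower for 5. Their median difference of -0.01 was -0.09 without WT replicate 1, 0.16 without WT replicate 2, and 0.0089 and 0.022 without Hif1a-/- replicates 1 and 2.

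Genes of the APC/C and of chromosome separation all had a slightly higher mean in Hif1a-/- cells, by less than their standard errors. A higher mean was seen in 61.4% of all genes. Cdc20, the activator of the APC/C in mitosis, read 10.78 and 11.11 in WT and 10.92 and 11.07 in Hif1a-/- cells. Ube2c, the ubiquitin-conjugating enzyme of the APC/C, read 11.70 and 11.74 in WT and 11.66 and 11.87 in Hif1a-/- cells. Espl1, separase, read 9.85 and 10.27 in WT and 10.31 and 10.06 in Hif1a-/- cells. Cdca3, a trigger of mitotic entry that the APC/C removes, read 10.70 and 10.85 in WT and 10.96 and 10.78 in Hif1a-/- cells. The differences of these 4 genes were 0.05, 0.05, 0.12 and 0.09, and each turned its sign with some array left out: Espl1 without WT replicate 1 or Hif1a-/- replicate 1, Cdc20 without WT replicate 1 or Hif1a-/- replicate 2, Cdca3 without Hif1a-/- replicate 1 and Ube2c without Hif1a-/- replicate 2.

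Both chromosome proteins had a lower mean in Hif1a-/- cells, within their errors. Mki67, the Ki-67 protein of the surface of mitotic chromosomes that is widely used to mark cycling cells, read 12.48 and 12.50 in WT and 12.58 and 12.39 in Hif1a-/- cells. Its difference was -0.0042, with a limma 95% interval from -0.32 to 0.31. Top2a, the topoisomerase that disentangles sister chromosomes, read 11.74 and 12.07 in WT and 11.76 and 11.87 in Hif1a-/- cells, a difference of -0.09 ± 0.15 (SE). A second probe set of Top2a read 5.03 or less on every array, under the 25th percentile of all values, and did not stand for the gene. For Mki67 the Hif1a-/- arrays were the highest and the lowest of the 4, while for Top2a WT replicate 2 stood above the rest.

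**Figure D3:**
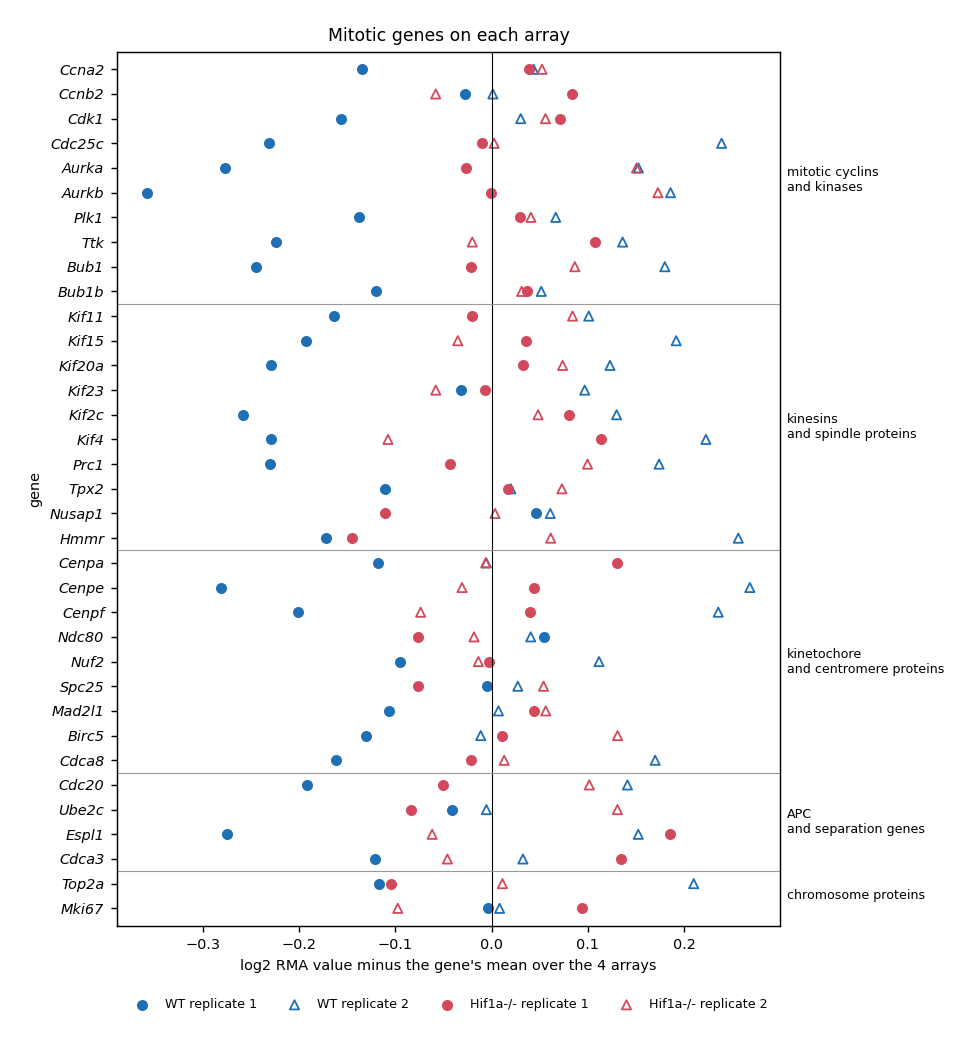
Each of 35 mitotic genes on each of the 4 arrays, as the log2 value minus the gene's mean over the arrays, with WT in blue, Hif1a-/- in red, replicate 1 as filled circles and replicate 2 as open triangles. WT replicate 1 is the lowest array for 28 genes and WT replicate 2 the highest for 22, with most Hif1a-/- points between them.

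In most members the WT arrays differed from each other more than the genotype means did. WT replicate 2 was above WT replicate 1 for 34 of 35 genes, all but Ndc80, beside 45.4% of all genes. The median difference between the WT arrays was 0.26, against -0.03 over all genes, and it was 0.37 for kinesins and spindle proteins, 0.28 for cyclins and kinases, 0.24 for the APC and separation genes and 0.12 for kinetochore and centromere genes. The gap exceeded the genotype difference in 30 of 35 genes, beside 75.5% of all genes. The gap is between single arrays and the genotype difference between means of 2 arrays, so the gap varies more even without any effect. WT replicate 1 was the lowest of the 4 arrays for 28 members and WT replicate 2 was the lowest for 0. In 20 members both Hif1a-/- arrays lay between the WT arrays, with WT replicate 1 at the bottom and WT replicate 2 at the top, an order that 18.2% of all genes had. The 2 WT samples have no replicate of their own, so the gap between them was not tested.

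The Hif1a-/- arrays lay closer together. Hif1a-/- replicate 2 was above replicate 1 for 20 members and below for 15, beside 50.4% above over all genes, with a median difference of 0.01 and a range from -0.25 for Espl1 to 0.21 for Ube2c. Against WT replicate 1 alone, the mean of the Hif1a-/- arrays was higher in 31 of 35 genes, with a median of 0.18, and against WT replicate 2 alone in 9 of 35, with a median of -0.09. The sign of the median thus turned with the WT array used, and 26 of 35 genes changed sign when 1 array was left out. The 9 that did not were Ccna2, Cdk1, Tpx2, Cenpa, Mad2l1 and Birc5, higher, and Kif23, Nusap1 and Ndc80, lower, each with an unadjusted limma p above 0.05 in each of these fits. Their sizes still moved with the array left out, for example from 0.0019 to 0.18 for Ccna2, from 0.033 to 0.22 for Cdk1 and from -0.13 to -0.00092 for Kif23.

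**Figure D4:**
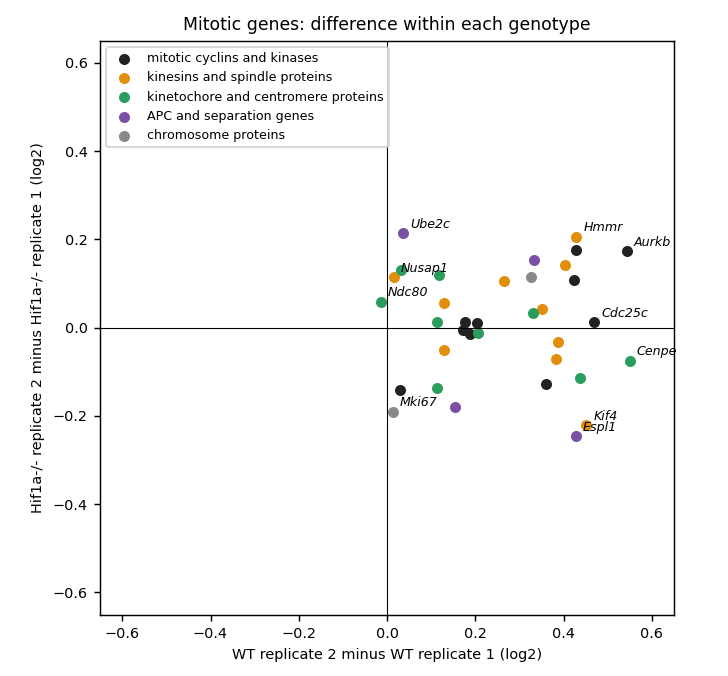
Difference between the 2 arrays of a genotype for each of 35 mitotic genes, on the log2 scale, WT on the horizontal and Hif1a-/- on the vertical axis, coloured by role. Points spread from -0.01 to 0.55 along the WT axis and from -0.25 to 0.21 along the Hif1a-/- axis.

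Some marker lists of other cells differed between the WT arrays and others did not. Over 10 granulocyte and monocyte markers, WT replicate 2 was below WT replicate 1 by a median of 0.95; 7 were lower and 3 higher, and their summed linear level was 80000 on WT replicate 1, 51060 on WT replicate 2, and 65340 and 60610 on the Hif1a-/- arrays. Itgam, the CD11b integrin, read 11.88 and 10.27 in WT and 10.995 and 10.71 in Hif1a-/- cells. Kit read 10.32 and 11.07 in WT and 10.95 and 10.61 in Hif1a-/- cells, and Cd34, another marker of immature cells, read 10.31 and 12.29 in WT and 10.70 and 11.70 in Hif1a-/- cells. The array low in mitotic genes was thus low in Kit and Cd34 and high in Itgam, but also high in Ptprc, at 11.60 against 11.14 on WT replicate 2. The 3 granulocyte and monocyte markers that were instead lower on WT replicate 1 were Elane (13.43 against 13.77), Mpo (12.97 against 13.67) and Csf1r (8.68 against 9.04). All 5 lymphoid markers were lower on WT replicate 2, by a median of 0.38. The summed level on WT replicate 1 was 1.05 times that on WT replicate 2 for erythroid, 1.03 times for mast cell, 1.04 times for stromal and endothelial and 0.812 times for megakaryocyte markers. The part of these cells in the mitotic gap was not tested.

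No marker of these other cells passed an adjusted limma p of 0.05. The 6 erythroid markers measured had a median difference of 0.69 between genotypes, and 5 of them, all but Gata1, had an unadjusted limma p under 0.05 and a higher mean in Hif1a-/- cells, beside 0.697% of all genes, with a summed linear level of 8431 and 8029 in WT and of 14580 and 10010 in Hif1a-/- cells. Hif1a-/- replicate 1 was the highest array for 6 of 6 erythroid markers and for 6 of 35 mitotic genes, beside 4411 of 19938 genes in all. The 6 mast cell markers had a median difference of -0.58. In 2 the unadjusted limma p was under 0.05 with a lower mean in Hif1a-/- cells, beside 0.978% of all genes. In 3 the Hif1a-/- pair lay wholly below the WT pair, beside 9.05% of all genes, and in 3 the groups overlapped. The part of these cells in the values of mitotic genes was not tested.

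The other genes of mitosis also gave no call between genotypes. A list of 122 further genes held 119 measured ones. The mean was higher in Hif1a-/- cells for 77 and lower for 42 (64.7% higher, against 61.4% of all genes). Their median difference was 0.05, beside 0.03 over all genes. Of these 0 had an unadjusted limma p under 0.05, beside 1.68% of all genes. In 4 both Hif1a-/- arrays lay above and in 3 below both WT arrays, beside 15.7% and 9.05% of all genes. In 110 WT replicate 2 was above WT replicate 1, beside 45.4% of all genes. The median gap between WT arrays over the 119 genes was 0.28. Between the Hif1a-/- arrays they read differently from the members, with 87 of 119 lower on replicate 2 (median -0.07), where 15 of 35 members were lower (median 0.01); this difference was not tested. Among 18 APC/C subunits and regulators the smallest unadjusted limma p was that of Anapc16 (difference 0.25, p 0.187), followed by Anapc11 (0.16). Among the other kinetochore genes, 34 measured, Pmf1 and Oip5 differed by 0.23 and 0.22.

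Of 17 condensin and cohesin genes, whose rings fold and hold chromosomes, the mean was higher for 8 and lower for 9, and the smallest p were those of the cohesin subunit Stag2 (-0.16, unadjusted limma p 0.238) and of the condensin subunit Smc4 (-0.11). Of 20 other kinesins and cytokinesis genes 17 had a higher mean, beside 61.4% of all genes. The difference was 0.25 for Kif18b and 0.17 for Kif18a, both kinesins that act on microtubule ends. All 20 were higher on WT replicate 2 than on WT replicate 1, beside 45.4% of all genes. Without WT replicate 2 Kif18b passed the threshold (difference 0.49, adjusted limma p 0.0289), as did 1442 of 19938 genes in that fit, and without WT replicate 1 it differed by 0.0099. Among 17 other mitotic kinases, phosphatases and cyclins, Cks1b, a CDK-binding subunit, differed by 0.14 and Mastl, the Greatwall kinase, by -0.20. Of 13 regulators of these genes E2f4, the E2F subunit of DREAM, differed by 0.29 (unadjusted limma p 0.174) and Nfyb, a subunit of NF-Y, by -0.11. With 1 array left out E2f4 ranged from 0.084 to 0.49 and Nfyb from -0.23 to -0.0013.

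The replication genes read highest on Hif1a-/- replicate 1. The 6 MCM helicase genes and Pcna, which act in S phase, were measured as the nearest group of cycling genes. A higher mean in Hif1a-/- cells was seen in 6 of the 7, beside 61.4% of all genes, with a median difference of 0.10. Mcm2 read 11.68 and 12.02 in WT and 12.23 and 11.83 in Hif1a-/- cells, and Mcm7 11.95 and 12.22 in WT and 12.38 and 12.09 in Hif1a-/- cells. All 7 were lower on Hif1a-/- replicate 2 than on replicate 1, by a median of 0.29, where the mitotic genes split 20 to 15 with a median of 0.01. Hif1a-/- replicate 1 was the highest array for 6 of 7 replication genes, and WT replicate 2 for 22 of 35 mitotic genes. This difference in order rests on 1 pair of arrays and was not tested. Lower values on Hif1a-/- replicate 2 than on replicate 1 were not particular to replication genes. They were seen in 29 of 34 further kinetochore genes, 15 of 17 condensin and cohesin genes, 10 of 13 regulators and 12 of 17 kinases, phosphatases and cyclins. Over all genes 9892 of 19938 were lower there, and 11 of 18 APC/C genes and 10 of 20 kinesins and cytokinesis genes lay nearer to that share.

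**Figure D5:**
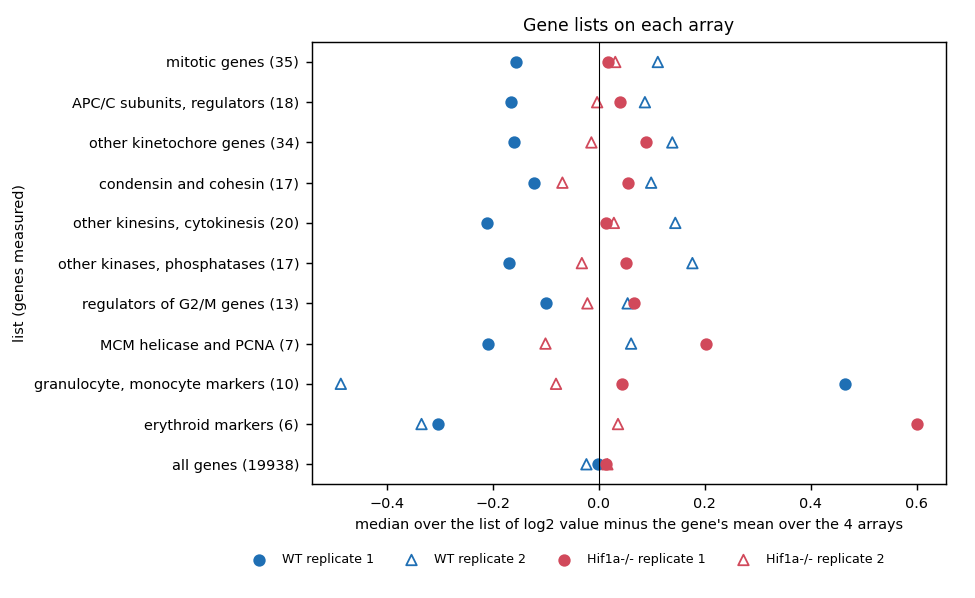
Median over each gene list of the log2 value minus the gene's mean over the 4 arrays, with the number of genes measured in brackets and the arrays marked as WT (blue) or Hif1a-/- (red), replicate 1 (filled circles) or 2 (open triangles). Mitotic lists are lowest on WT replicate 1, at -0.16 for the 35 mitotic genes, while granulocyte markers are highest there and erythroid markers highest on Hif1a-/- replicate 1.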

How the data were processed

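Affymetrix whole-transcript arrays measured the RNA of sorted leukemia stem cells, 2 arrays for each genotype. The authors deposited log2 values, made with Affymetrix Expression Console 1.1 and RMA per the submitters' processing notes. No further setting is known here. RMA makes the arrays' distributions of probe intensities equal, so a change in a cell's total RNA does not show. The probe set values made from them still differed slightly in distribution, with medians over all genes from 8.53 to 8.57. Of 35556 probe sets, 21789 named 1 gene in the platform annotation. Genes were tested with limma 3.58.1 (lmFit, eBayes) under R 4.3.3, on genotype alone, with Benjamini-Hochberg adjustment over 19938 genes at 0.05. The procedure was tested on simulated data. There 56.2% of 2-fold and 97.7% of 4-fold changes were called, with a mean of 7.1 false calls a data set. An exact two-sided permutation test of 2 against 2 arrays cannot go below 0.333. Deviations of same-numbered arrays did not correlate (r -0.0072 over all genes), so replicate numbers were not taken to pair samples. Members, lists and the rule for named genes (all members, the 2 genes of each further list with the smallest p, Hif1a, and set markers) were chosen with earlier results of these data known; promoter elements and the stretches shown were chosen afterwards. Of the lists' symbols, 6 were updated through RefSeq.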

Additional observations from a re-analysis of the deposited data

How the results depend on the processing

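None of the 35 mitotic genes passed an adjusted limma p of 0.05 under any alternative run. Filters on low means (25th percentile or median), a floor, the mean of all probe sets and a variance trend left the median difference at 0.06, which was 0.030 with array medians set equal and 0.067 after a second quantile normalization. Without 1 array it ranged from -0.090 (WT replicate 1) to 0.18 (WT replicate 2), the genes with a higher mean from 9 to 31 and those with an unadjusted p under 0.05 from 0 to 6. Without 1 array, mitotic genes with both Hif1a-/- arrays above the WT arrays ranged from 3 to 28 and below from 2 to 23. These ranges are wide partly because fewer arrays overlap less often. For the fits without 1 array, the shares of all genes without overlap or with an unadjusted p under 0.05 are not given here. The matching counts of mitotic genes thus have no baseline and cannot be read as particular to these genes. A second quantile normalization of all 4 arrays gave 7 above and 1 below. Over all genes, 0 passed in the reported fit, 1 and 2 with a variance trend without and with robust fitting, and 2 to 1442 without 1 array, where the lone sample is assumed to vary like the other genotype. With the replicate number as a block, a pairing the labels do not explain, 47 genes passed, 0 of them mitotic.

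Leaving out a WT array turned the sign of the following differences, with ranges over all 4 arrays left out of -0.24 to 0.23 for Cdc25c, -0.090 to 0.34 for Aurka, -0.10 to 0.44 for Aurkb, -0.031 to 0.17 for Plk1, -0.092 to 0.27 for Ttk, -0.15 to 0.28 for Bub1, -0.017 to 0.15 for Bub1b, -0.069 to 0.20 for Kif11, -0.19 to 0.19 for Kif15, -0.070 to 0.28 for Kif20a, -0.066 to 0.32 for Kif2c, -0.22 to 0.23 for Kif4, -0.15 to 0.26 for Prc1, -0.30 to 0.13 for Hmmr, -0.26 to 0.29 for Cenpe, -0.25 to 0.18 for Cenpf, -0.12 to 0.087 for Nuf2, -0.17 to 0.16 for Cdca8, -0.12 to 0.22 for Cdc20, -0.091 to 0.34 for Espl1 and -0.26 to 0.070 for Top2a. Among genes that kept their sign, the ranges were 0.056 to 0.19 for Cenpa, -0.16 to -0.050 for Nusap1, 0.025 to 0.16 for Tpx2, -0.12 to -0.066 for Ndc80, 0.043 to 0.16 for Mad2l1, 0.043 to 0.28 for Anapc11, 0.052 to 0.45 for Anapc16, 0.034 to 0.42 for Pmf1, -0.20 to -0.0095 for Smc4, -0.21 to -0.11 for Stag2, 0.00031 to 0.28 for Cks1b and 0.0078 to 0.30 for Mcm7. Outside the members the sign turned for Oip5 (-0.019 to 0.47), Kif18a (-0.050 to 0.40), Mastl (-0.46 to 0.064), Kit (-0.29 to 0.47), Itgam (-1.03 to 0.58) and Cd3e (-0.085 to 0.27). Of the genes not listed above, leaving out a Hif1a-/- array turned Ccnb2 (-0.045 to 0.097), Spc25 (-0.087 to 0.043), Ube2c (-0.061 to 0.15), Cdca3 (-0.0016 to 0.18), Mki67 (-0.10 to 0.091) and Mcm2 (-0.020 to 0.38). Mki67 turned without WT replicate 2 as well (0.0020). Some genes listed above also turned without a Hif1a-/- array, Hmmr, Espl1 and Cdc20 among them. With array medians set equal, Ccnb2 (-0.00014), Cenpe (-0.013), Kif4 (-0.020) and Kif15 (-0.025) turned, and with a second quantile normalization Mki67 (0.036). The cause was not tested. The number of arrays limits the precision.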

Other observations

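Values of the members were also set out by promoter content, as a description chosen after the values were seen. The 22 genes with both a CHR element and a CCAAT box had a median gap of 0.30 between WT replicate 2 and WT replicate 1, ranging from 0.012 for Mki67 to 0.45 for Kif4, and all 22 were higher on WT replicate 2. The 8 genes without both had a median gap of 0.16, with 7 higher, and ranged from -0.014 for Ndc80 to 0.55 for Cenpe, which has a CCAAT box and no CHR match in its window. The 4 genes with neither element (Birc5, Mad2l1, Nuf2 and Nusap1) had a median gap of 0.12. The 5 genes without a searched window (Aurkb, Ccna2, Cdc25c, Kif20a and Tpx2) had a median gap of 0.35, above that of the 22 genes. Between genotypes the median differences were 0.05 for the 22 genes and 0.0070 for the 8. They were 0.042 for the 4 with neither element and 0.091 for the 5 without a searched window.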
